A study of Brassica carinata x Brassica rapa with 9 samples.

Results

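The male organ was set against the female organ of a synthetic Brassica allohexaploid, using 6 of the 9 RNA-Seq libraries of the series: Anther-1, Anther-2 and Anther-3 against Ovule-1, Ovule-2 and Ovule-3. The plants were AABBCC allohexaploids, in which the A-genome comes from B. rapa and the other 2 subgenomes, B and C, from B. carinata. The sample labels call B. carinata the male and B. rapa the female parent, whereas the methods of the study give B. carinata as maternal. Anther covered development from meiosis until pollen was mature, and Ovule from meiosis until the embryo sac was complete, so each library pooled the stages of a whole organ and all of its cell types. The methods describe the 3 libraries of an organ as biological replicates without saying how many plants went into each, and the p-values below measure the spread between these libraries. In a pooled organ, fewer cells of a type and less RNA per cell cannot be told apart. The third organ of the series, Leaf, was not part of this comparison.

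Every gene of the table was considered, and its value is the FPKM calculated by the authors, a fragment count scaled by gene length and by the total of the library. Of 100804 genes, 99290 were above 0 in at least 1 of the 6 libraries and 71126 were tested, having at least 0.5 FPKM in at least 3 of them. An identifier starting with Bra belongs to the A-genome, one with BniB to the B-genome and one with Bol to the C-genome. A gene was called when its fitted fold difference on log2(FPKM + 0.1) was at least 2 and its Benjamini-Hochberg adjusted p from limma was at most 0.05. All log2 changes are Anther over Ovule.

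In the anther, meiocytes divide to give microspores inside a ring of nourishing tapetum cells, which also make the precursors of sporopollenin, the polymer of the outer pollen wall. In the ovule, a meiotic product divides by mitosis within one large cell, its nuclei take up fixed positions, and walls then form around them to give the embryo sac. Both organs carry out meiotic recombination, in which programmed DNA breaks are repaired as crossovers or non-crossovers. The study named 111 genes for these steps by their Arabidopsis orthologs, and it chose them on these same libraries, so their direction is a description and gives no independent support.

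The study also designed oligonucleotide primers to single copies of some of these genes, and 3 forward primers are shown because the study assigned each to one of several related copies described below. Whether a primer matches that copy alone was not tested. The capitals mark the 5 bases at the 3′ end, where a primer is extended.
SPO22, BniB000031: aaggagagctcaggcGTTTC
AMS, BniB025753: tggttcggattgtagCGACC
LAP5, Bol034656: gacgctgtaaccgaaATGGC
SPO22 belongs to meiosis and AMS to the tapetum, while LAP5 serves the pollen wall. The values of these copies in every library are given with their groups.

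The depth of the 6 libraries was alike, with 15075782 to 15525708 reads on genes in each as read back from the FPKM steps. A single Anther library held more detected genes, at 87974 ± 3218 above 0 FPKM against 79902 ± 1296 in Ovule (SD, n = 3). Ovule held more genes above 100 FPKM, at 1604 ± 67.5 against 1308 ± 116, a difference of -296 genes that came to -29.7 once the values were rescaled with median-of-ratios factors, which assume that most genes do not differ. The 100 most abundant genes of a library took 13.5% ± 0.798 of summed FPKM in Anther and 9.55% ± 0.664 in Ovule. The libraries did not overlap for any of these 3 measures (exact permutation test, two-sided, p = 0.1 and 0.14 after adjustment over 7 measures, where 0.1 is the lowest value possible with 3 libraries against 3). The number of genes that together make up 50% of summed FPKM was similar, at 4152 ± 363 in Anther and 4081 ± 55.1 in Ovule (exact permutation p = 1).

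Anther-2 and Ovule-3 stood apart from the other libraries of their organs. Pearson's r of log2(FPKM + 1) over genes, which are not independent replicates, was 0.934 for Anther-2 with Anther-1 and 0.960 with Anther-3, against 0.971 between the latter. Among Ovule libraries it was 0.977 to 0.984. With the Ovule libraries, r was 0.848 to 0.854 for Anther-2, 0.828 to 0.840 for Anther-3 and 0.805 to 0.812 for Anther-1. Of the genes tested, 3981 were at least 2-fold lower in Anther-2 than in both other Anther libraries, compared with 1476 for Anther-1 and 955 for Anther-3. In the upward direction Anther-1 departed most, with 1816 genes against 1015 for Anther-2 and 587 for Anther-3. Ovule-3 was at least 2-fold above both other Ovule libraries in 2306 genes, against 511 for Ovule-1 and 843 for Ovule-2, and below both others in 1512 genes, against 1857 and 1041. Of those 2306 genes, 1013 were called higher in Anther and 136 higher in Ovule. Counts of calls are therefore also given without Anther-2, and in part without Ovule-3.

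Anther and Ovule differed in 20479 of the genes tested, which is 28.8% of them. Anther had the higher level for 10158 genes (14.3%) and Ovule for 10321 (14.5%), so the 2 directions were nearly equal in number. The fold difference was below 2 in 68.0% of the genes tested. The split depended on the scale of the values, since rescaling moved the median log2 change of all genes tested from -0.12 to 0.04 and gave 11661 calls toward Anther and 8273 toward Ovule. Without Anther-2 the numbers were 10383 (14.6%) and 10626 (14.9%). Without Ovule-3 they were 10002 and 9560, without Ovule-2 9565 and 9434, and without Ovule-1 9406 and 9462.

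The directions were far from equal in size of change. Among differences of 2- to 4-fold, Ovule led with 6643 genes against 3811 in Anther, a lead that nearly closed after rescaling, with 5094 against 4848. At 4- to 8-fold there were 2044 genes for Ovule and 1718 for Anther, an order that turned after rescaling to 1734 and 1971. From 8-fold upward Anther led in each class, with 1515 against 916 genes at 8- to 16-fold, 2099 against 585 at 16- to 64-fold and 1015 against 133 from 64-fold upward. In all, 4629 genes were at least 8-fold higher in Anther and 1634 in Ovule, so that 73.9% of such differences were toward Anther. That share was 76.1% without Anther-2, 77.0% after rescaling, 79.4% with both changes together and 70.6% with limma voom on the reads.

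**Figure D1:**
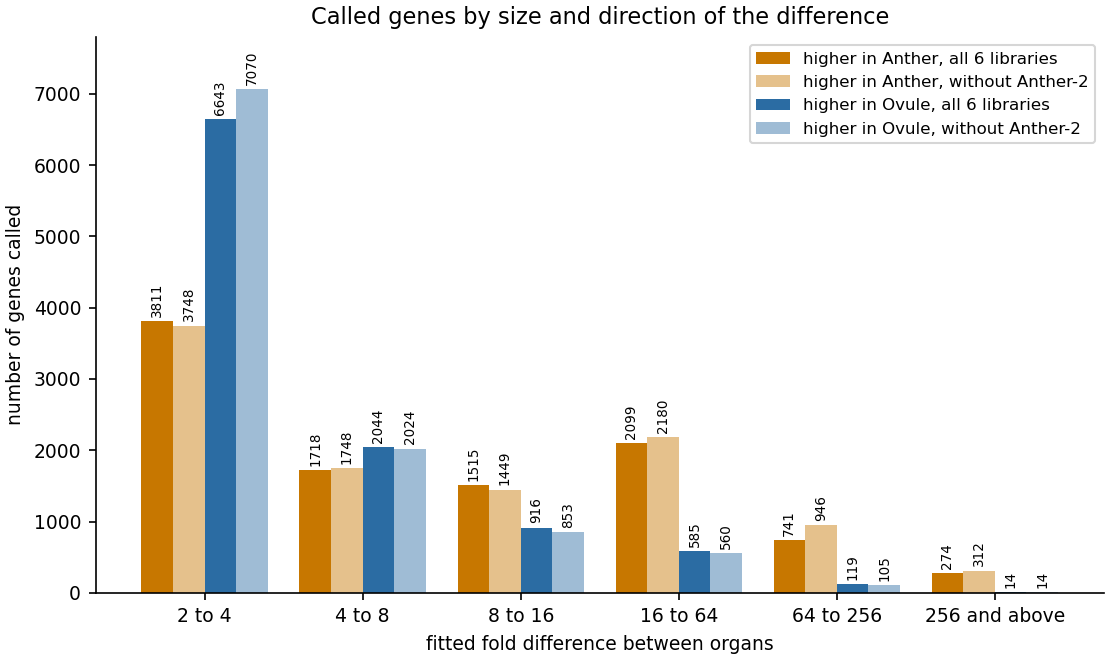
Number of called genes (vertical axis) by fitted fold difference between the organs (horizontal axis), higher in Anther in orange and higher in Ovule in blue, with all 6 libraries in full colour and without Anther-2 in pale colour. The 2- to 4-fold class holds 6643 genes for Ovule and 3811 for Anther, whereas the topmost class holds 14 and 274.

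The median called gene was 6.48-fold higher in Anther or 3.13-fold higher in Ovule on the fitted scale. For genes without a read in the other organ the pseudocount sets the fitted fold, and there were 1401 of these on the Anther side (13.8%) and 196 on the Ovule side (1.90%). With these genes placed at their bound, taken as 3 reads in each library of the other organ, the medians were 5.51-fold and 3.11-fold. On that footing 4124 genes were at least 8-fold higher in Anther and 1528 in Ovule, or 73.0% toward Anther. Over all called genes the median number of reads behind the value of the lower organ was 26 for genes higher in Anther and 93 for genes higher in Ovule, each summed over 3 libraries.

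Genes called higher in Anther held 26.6% ± 1.37 of summed FPKM in Anther and 2.69% ± 0.0774 in Ovule (SD, n = 3). Those called higher in Ovule held 25.1% ± 0.815 in Ovule and 7.67% ± 0.333 in Anther. Since the calls were made from these values, the shares describe them and carry no test. The pool higher in Ovule kept a larger share in the opposite organ than the pool higher in Anther did.

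Abundance classes were taken from the mean FPKM of the 6 libraries, as low up to 10, moderate above 10 to 100 and high above 100. In the low class 7700 of 48173 genes (15.98%) were called toward Anther and 7398 (15.36%) toward Ovule. In the moderate class 2245 of 21491 genes (10.45%) and 2638 (12.3%) were called, the lowest shares of the 3 classes. The lead of Ovule in this class turned after rescaling, to 2656 calls toward Anther and 1998 toward Ovule. It also turned without Ovule-3, with classes taken from the libraries left, to 2471 and 2382. Such classes give more weight to the organ that lost no library. In the same way the lead nearly closed without Ovule-1, at 2380 and 2387, and without Ovule-2, at 2402 and 2463. Without Anther-2 it widened, at 2100 and 3091. The high class held 1462 genes, with 213 calls (14.6%) toward Anther and 285 (19.5%) toward Ovule. With the classes of all 6 libraries kept, the high class had 221 and 345 calls without Anther-2, and after rescaling 221 and 224. Classed again from the libraries left, it had 232 and 238 calls without Ovule-1 and 228 and 260 without Ovule-2. Without Ovule-3 it had 237 and 245 in that way, and without Anther-2 198 and 390. The lead of Ovule among abundant genes was thus present on the deposited scale and nearly absent after rescaling. It was also narrower without any single Ovule library, when classes were taken from the libraries left. The median log2 change of the high class was -0.51 as deposited and -0.35 rescaled. Strong differences among abundant genes were mostly toward Anther all the same, with 163 genes at least 8-fold higher in Anther and 33 in Ovule.

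Genes that were abundant in one organ and nearly absent from the other were largely Anther genes. Over all genes of the table, tested or not, 129 had a mean above 100 FPKM in Anther and below 1 FPKM in Ovule, whereas 9 genes had the reverse. The limits held in every single library for 56 and 3 of these genes, and 14 of the 129 had no read in any Ovule library. Above 10 FPKM in one organ and below 1 in the other there were 1289 genes on the Anther side and 252 on the Ovule side. Both organs shared 847 genes above 100 FPKM. The 129 genes divided into 48 of the A-, 43 of the B- and 38 of the C-genome, and the 9 genes into 5, 4 and 0.

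**Figure D2:**
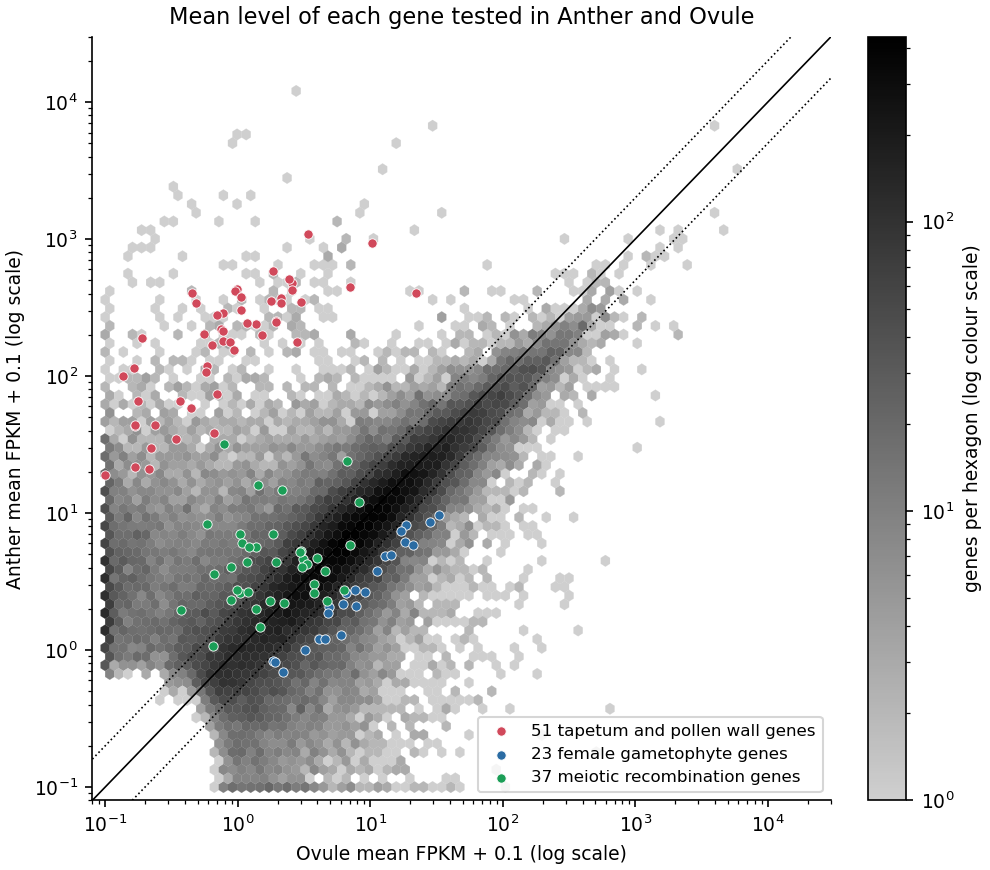
Mean FPKM + 0.1 of each gene tested in Ovule (horizontal, log scale) and in Anther (vertical, log scale), as grey hexagons darkening with the number of genes, with the genes named by the study as coloured points. The solid line marks equal levels and the dotted lines a 2-fold difference. The 51 tapetum and pollen wall genes lie at 18.7 to 1090 FPKM in Anther and at 0 to 22.0 in Ovule, the 23 female genes lie below the lower dotted line, and the 37 meiotic genes spread from just below the lower dotted line to far above the upper one.

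The extremes of the comparison were 4 genes without a name in the sources used here, picked by rule as the largest difference in mean and the largest ratio that held in all library pairs. Bra029135 was the most abundant on the Anther side, at 9247, 17301 and 9646 FPKM in Anther-1, Anther-2 and Anther-3 and at 0.505, 1.016 and 5.963 FPKM in Ovule-1, Ovule-2 and Ovule-3. The organs were more than 3 orders of magnitude apart in every pair of libraries, while within each organ one library stood well above the others. Its log2 change was 12.82 (standard error 0.78, limma adjusted p = 3.8e-05). BniB022208 stood at 1847, 2818 and 1827 FPKM in Anther and at 0, 0.366 and 0.374 FPKM in Ovule, the latter from 4 reads in all.

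On the Ovule side, Bra029719 showed the largest difference in level, at 4373, 4836 and 4403 FPKM in Ovule and 966, 1183 and 1397 FPKM in Anther, which is 3.84-fold higher in Ovule by the means (log2 change -1.96, standard error 0.28, limma adjusted p = 1.5e-03). It was thus abundant in both organs, unlike its Anther counterpart. BniB041218 stood at 257, 527 and 831 FPKM in Ovule and 0.149, 0 and 0.0974 FPKM in Anther, with 5 reads over the 3 Anther libraries. The Ovule libraries differed among themselves more than 3-fold for this gene, far less than the distance between the organs.

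The 3 subgenomes contributed called genes in nearly the same proportion in both directions. Of 25086 A-genome genes tested, 3762 (15%) had their higher level in Anther and 3737 (14.9%) in Ovule. Of 25513 B-genome genes 3608 (14.1%) and 3698 (14.5%) were called, and of 20527 C-genome genes 2788 (13.6%) and 2886 (14.1%). Without Anther-2 the shares higher in Anther were 15.19%, 14.48% and 14.02% for the A-, B- and C-genomes, and those higher in Ovule 15.33%, 15% and 14.4%. Without Ovule-3 each subgenome had more calls toward Anther than toward Ovule. The numbers were 3661 against 3518 in the A-genome, 3613 against 3354 in the B-genome and 2728 against 2688 in the C-genome. Without Ovule-2 this order held in the A-genome, at 3531 against 3413, and the C-genome, at 2656 against 2626. Without Ovule-1 it held in the A-genome only, at 3494 against 3410. Rescaling moved all subgenomes together, to between 58.4% and 58.6% of calls toward Anther. Differences of at least 8-fold were mostly toward Anther in each, with 1805 against 580 genes in the A-genome, 1606 against 588 in the B-genome and 1218 against 466 in the C-genome. A difference between subgenomes in the share of called genes was not tested.

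**Figure D3:**
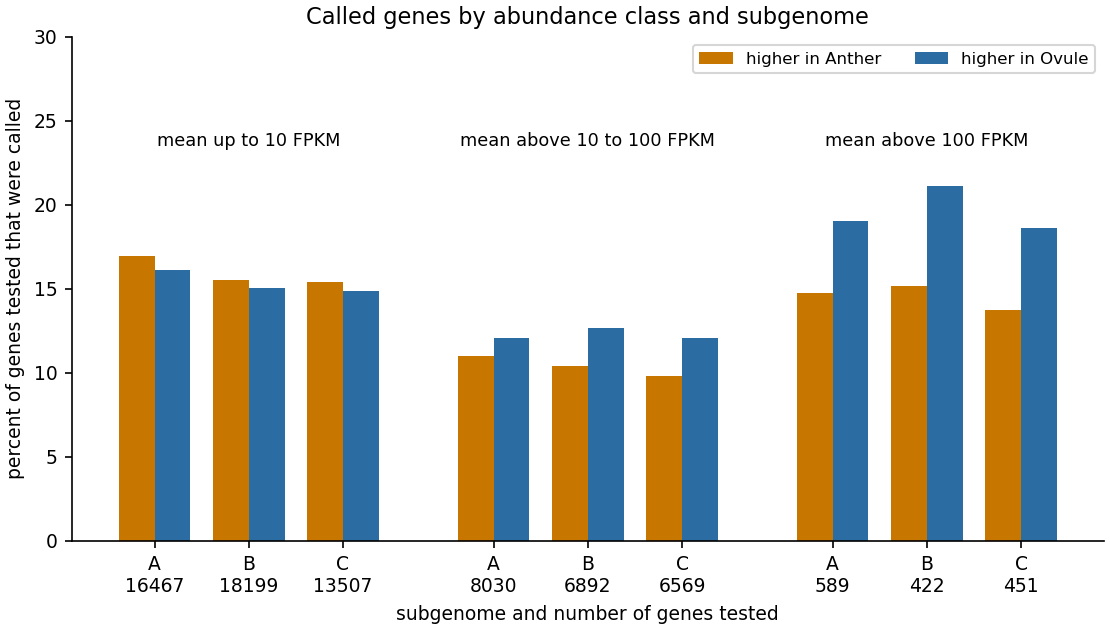
Percent of the genes tested that were called (vertical axis) in each abundance class and subgenome, with the number of genes tested under each pair of bars, higher in Anther in orange and higher in Ovule in blue. As deposited, the Ovule bar is the taller in the moderate and high classes of each subgenome and the Anther bar in the low class. The high class reaches 19.0%, 21.1% and 18.6% toward Ovule in the A-, B- and C-genomes.

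Summed over all genes, the subgenomes held nearly the same share of transcripts in both organs. The A-genome held 38.6%, 38.9% and 38.9% of summed FPKM in the Anther libraries and 38.6%, 38.5% and 38.1% in the Ovule libraries. Its mean was 0.361 percentage points higher in Anther (two-sided exact permutation p = 0.2, 0.3 after adjustment over the 3 subgenomes). The B-genome share was 31.6% ± 0.281 in Anther and 32.1% ± 0.424 in Ovule (exact permutation p = 0.2, n = 3), and the C-genome share 29.7% ± 0.402 and 29.5% ± 0.120 (exact permutation p = 0.6, n = 3). Without Ovule-3 the A-genome difference was 0.185 points and that of the B-genome went from -0.516 to -0.276 points. The A-genome difference was 0.0959 points when the 100 most abundant genes were left out. In the high class the A-genome libraries did not overlap, at 42.2% ± 0.180 in Anther and 41.5% ± 0.141 in Ovule, with an exact permutation p of 0.1 (n = 3) and an adjusted p of 0.2. Among genes called higher in Anther, the A-genome made up 41.8% ± 0.195 of their summed FPKM in Anther and 39.5% ± 0.441 in Ovule, a description of genes chosen from these values.

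Single libraries mostly gave the direction that the means gave. The libraries of the organs did not overlap for 40838 genes (57.4%). For 17216 of them (24.2% of genes tested) the lowest Anther library was above the highest Ovule library, and for 23622 (33.2%) the reverse held. This order turned after rescaling, to 21188 genes toward Anther and 19255 toward Ovule. Of the called genes, 99.2% of those higher in Anther and 99.7% of those higher in Ovule had libraries that did not overlap. The calls were made from these same values, so the selection favours such high shares. A stricter rule, a difference of at least 2-fold in all 9 pairs of an Anther and an Ovule library, was met by 6877 genes higher in Anther (9.67% of genes tested) and 5460 higher in Ovule (7.68%). It was met by 67.7% of the calls toward Anther and 52.9% of those toward Ovule. The contrast was widest in the high class, where 83.6% of the calls toward Anther and 54.7% of those toward Ovule met it.

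Taken one pair at a time, the libraries gave similar numbers. From 11768 to 13428 genes were at least 2-fold higher in the Anther library of a pair, and from 12299 to 13517 in the Ovule library. The largest count toward Anther came from Anther-1 with Ovule-1 and the smallest from Anther-3 with Ovule-3. Over the genes called higher in Anther, the median log2 ratio ran from 2.38 for Anther-2 with Ovule-3 to 2.91 for Anther-1 with Ovule-1. For genes called higher in Ovule it stayed between -1.72 and -1.62 in all 9 pairs.

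Leaving out Anther-2 changed which genes were called more than it changed their number. Of the calls toward Anther, 9301 (91.6%) were kept, and of those toward Ovule 9470 (91.8%), while none turned to the opposite direction. In exchange for 857 and 851 lost calls, 1082 and 1156 were gained. Anther-2 was the lowest Anther library in 98.6% of the gained genes higher in Anther and the highest in 93.9% of the gained genes higher in Ovule, which the way these genes were selected favours. It was the highest Anther library in 72.2% of the lost calls toward Anther. The log2 change moved by more than 1 in 777 genes (1.09%). Among all genes called higher in Anther, Anther-2 was the highest Anther library in 40.3% and the lowest in 40.4%. Anther-1 was the highest in 42.8% and the lowest in 23.7%, and Anther-3 in 16.9% and 35.9%. With Anther-2 left out, the libraries did not overlap for 20000 genes (28.1%) toward Anther and 27835 (39.1%) toward Ovule.

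Values of the gene groups named by the study are given as summed FPKM of all copies in a group, for each library in the order 1, 2 and 3. Counts of called genes can be read against the 14.3% of all genes called higher in Anther and the 14.5% called higher in Ovule, with the reservation that the study picked the lists on these libraries.

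Genes of the tapetum and the pollen wall were the most strongly separated, and all 51 of them were called higher in Anther, with all 6 libraries, without Anther-2, without Ovule-3 and after rescaling, while limma voom on the reads called 20 of the 21 sporopollenin genes and all others. They took 1.40%, 0.779% and 1.48% of summed FPKM in the Anther libraries and at most 0.0133% in an Ovule library. Their median log2 change was 8.23, against -0.12 over all genes tested. All 12 tapetum and wall genes, with their copies summed, stood at 57.7 FPKM or more in every Anther library and at 31.5 FPKM or less in every Ovule library.

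The 15 genes of tapetum transcription factors summed to 1851, 1874 and 1592 FPKM in Anther and 0.914, 2.53 and 9.13 FPKM in Ovule. The Anther libraries were close together and the Ovule libraries differed about 10-fold among themselves at levels near 0. AMS, a bHLH factor needed for tapetum function, made up most of this with 1439, 1409 and 1115 FPKM over 6 copies. Its B-genome copy BniB025753, to which the study assigned the primer above, stood at 224, 206 and 175 FPKM in Anther and 0, 0.307 and 1.06 FPKM in Ovule (log2 change 9.12, standard error 0.78, limma adjusted p = 1.6e-04). MYB80, a MYB factor that acts after AMS, stood at 352, 349 and 420 FPKM over 6 copies.

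TDF1, a MYB factor that acts early in tapetum development, was the weakest and the least even of the 3, at 59.8, 116 and 57.7 FPKM over 3 copies. Anther-2 was the highest Anther library for each copy of it. The A-genome copy Bra025337 stood at 32.3, 55.9 and 26.7 FPKM in Anther and 0.398, 0.667 and 0.612 FPKM in Ovule (log2 change 5.82, standard error 0.32, limma adjusted p = 2.4e-05). The C-genome copy Bol042967 stood at 14.2, 28.5 and 13.4 FPKM in Anther and had no read in any Ovule library. By the means it was at least 92.3-fold higher in Anther, with 3 reads in each Ovule library as the floor. Placing it at that bound left the group median at 8.23.

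Genes of sporopollenin synthesis were abundant in all Anther libraries but uneven among them. The 21 genes summed to 5518, 3297 and 6275 FPKM in Anther and 3.59, 11.5 and 50.6 FPKM in Ovule. Anther-2 was the lowest of its organ and Ovule-3 the highest of its own. CYP703A2, which hydroxylates medium-chain fatty acids, was the most uneven, with 1173, 219 and 1207 FPKM over 5 copies in Anther. CYP704B1, which hydroxylates long-chain fatty acids, stood at 728, 230 and 832 FPKM. ACOS5, a fatty acyl-CoA synthetase that feeds the pathway, was nearly level at 915, 774 and 968 FPKM. The polyketide synthases LAP5 and LAP6, which extend the acyl chains, stood at 2014, 1774 and 2324 FPKM and at 688, 301 and 945 FPKM.

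The copies of LAP5 covered a wide range of levels with the same direction. Bol034656, for which a primer is shown, stood at 409, 419 and 381 FPKM in Anther and 0, 0.0550 and 1.01 FPKM in Ovule, with the Anther libraries within 10% of each other. Its log2 change was 10.61 (standard error 0.81, limma adjusted p = 9.5e-05), the largest among the 8 copies. Bol013698, with the smallest, stood at 95.5, 50.3 and 75.1 FPKM in Anther and 0, 0.330 and 1.46 FPKM in Ovule (log2 change 7.46, standard error 0.89, limma adjusted p = 6.6e-04). Even this copy did not overlap between the organs.

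The 15 genes of reductases and export, which finish the monomers and carry them to the wall, summed to 7366, 3402 and 7851 FPKM in Anther and 36.3, 52.9 and 85.7 FPKM in Ovule. MS2, a fatty acyl reductase, showed the widest gap within the organ, with 2962, 471 and 3267 FPKM over 6 copies. ABCG26, the transporter that exports the precursors from the tapetum, stood at 1334, 463 and 1103 FPKM. TKPR1 and TKPR2, which reduce the polyketides, were more even at 2153, 1632 and 2299 FPKM and at 917, 836 and 1181 FPKM. The B-genome copy of TKPR2, BniB031910, had the smallest change of all 51 genes, at 329, 472 and 403 FPKM in Anther and 21.5, 21.9 and 22.5 FPKM in Ovule (log2 change 4.17, standard error 0.16, limma adjusted p = 6.3e-06). Its level in Ovule was even over the libraries, in contrast to most of these genes.

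Traces of these male genes in Ovule followed one library. Of the 51 genes, 35 had no read in Ovule-1, 8 had none in Ovule-2 and 1 had none in Ovule-3. Ovule-3 was the highest Ovule library for 47 of the 51, and the genes summed to 40.8, 67.0 and 145.4 FPKM in Ovule-1, Ovule-2 and Ovule-3. The median gene stood at 0%, 0.271% and 0.878% of its Anther mean. Over all 224 genes with at least 100 FPKM and 50-fold more in Anther, listed genes among them, Ovule-3 was the highest Ovule library for 85.7%. Without Ovule-3 the median log2 change rose from 8.23 to 8.77 for tapetum factors, from 8.54 to 9.56 for sporopollenin genes and from 8.19 to 9.36 for reductases and export. Leaving out Anther-2 instead gave medians of 8.16, 8.86 and 9.07 for these 3 groups. The part of Ovule-3 in the size of the male differences beyond these values was not tested.

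**Figure D4:**
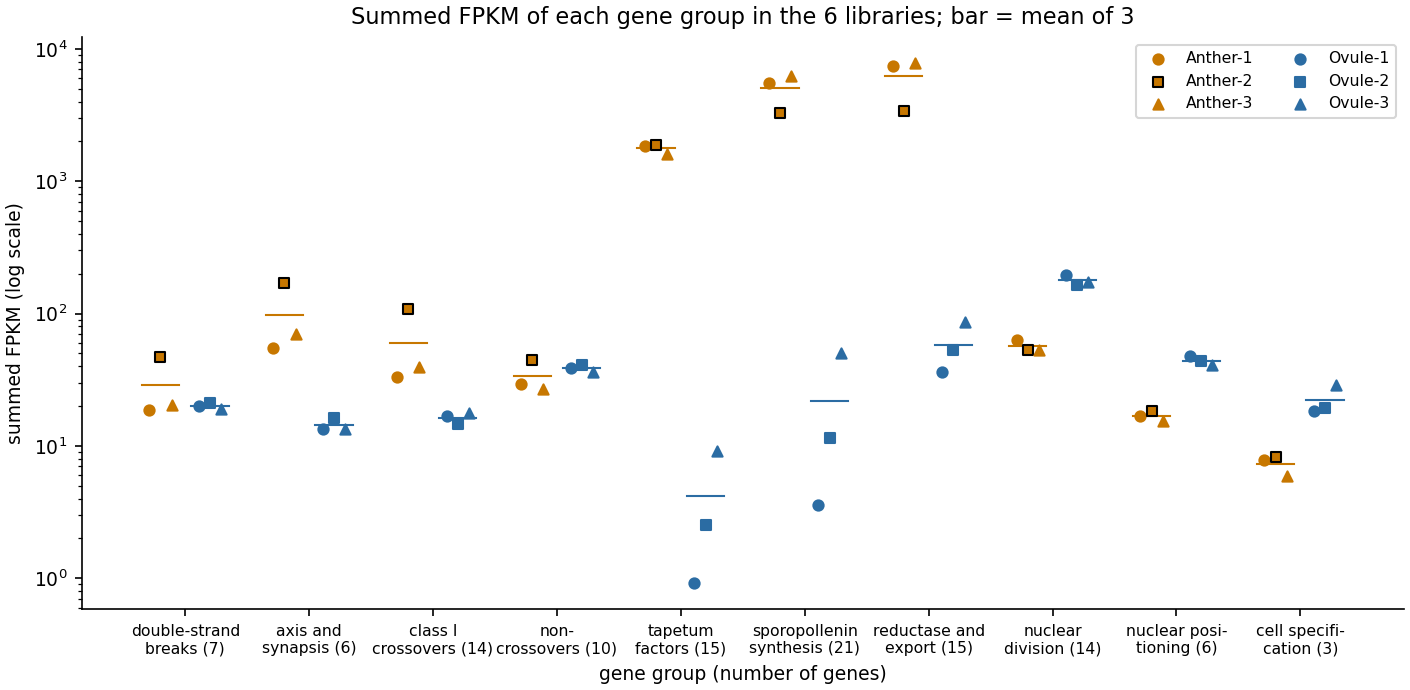
Summed FPKM (vertical, log scale) of each gene group named by the study in the 6 libraries, Anther in orange and Ovule in blue, with circles, squares and triangles for libraries 1, 2 and 3, a black outline on Anther-2 and a bar at the mean of 3. Anther-2 lies above the other Anther libraries in the groups of double-strand breaks, synapsis, class I crossovers and, by less, non-crossovers. It lies below them in sporopollenin synthesis and export, while Ovule-3 is the highest Ovule library in the 3 male groups.

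Meiotic genes divided by their step in recombination. The 7 genes needed for double-strand breaks summed to 18.5, 47.1 and 20.4 FPKM in Anther and 19.9, 21.02 and 18.9 FPKM in Ovule. Apart from Anther-2 the libraries of the 2 organs overlapped, and 0 of the 7 were called, with adjusted p of 0.11 to 0.87 from limma, 0 at an unadjusted p of 0.05 and 0 with limma voom. The log2 changes ran from -0.08 for MTOPVIB, the topoisomerase-like partner of the break enzyme, to 1.21 for SPO11-1, the enzyme that cuts the DNA. SPO11-1 (BniB034973) stood at 1.79, 4.52 and 1.23 FPKM in Anther and 1.11, 1.24 and 0.482 FPKM in Ovule, so its libraries overlapped. PRD1 and PRD3, accessory proteins of break formation, had log2 changes of 0.09 to 0.68 over 5 copies.

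Synapsis genes were higher in Anther, where 5 of 6 were called with and without Anther-2. They summed to 55.1, 170.1 and 69.8 FPKM in Anther and 13.5, 16.2 and 13.4 FPKM in Ovule, so the lowest Anther library was 3 times the highest Ovule library or more. ASY1, a protein of the chromosome axis, differed between its copies. The A-genome copy Bra004222 stood at 15.4, 57.3 and 22.3 FPKM in Anther and 0.644, 0.648 and 0.771 FPKM in Ovule (log2 change 5.11, standard error 0.45, limma adjusted p = 1.8e-04). The B-genome copy BniB009412 stood at 14.9, 39.3 and 17.7 FPKM in Anther and 6.31, 7.68 and 5.83 FPKM in Ovule (log2 change 1.72, standard error 0.35, limma adjusted p = 6.7e-03). The copies were at like levels in Anther, whereas in Ovule nearly all of the ASY1 signal came from the B-genome copy.

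ZYP1a, the protein that joins paired chromosomes along their length, was called for all 3 copies. Its copy Bra003654 stood at 9.95, 27.4 and 10 FPKM in Anther and 1.45, 1.32 and 1.21 FPKM in Ovule (log2 change 3.31, standard error 0.40, limma adjusted p = 6.6e-04). ASY3, another axis protein, was the member not called, at 2.06, 7.20 and 3.17 FPKM in Anther and 3.17, 3.30 and 3.17 FPKM in Ovule. Over the synapsis genes the A-genome held 63.1% ± 0.586 of their summed FPKM in Anther and 28.2% ± 3.20 in Ovule (SD, n = 3), while the B-genome held 29.3% ± 1.75 and 68.3% ± 1.56. These shares rest on 3 A-genome and 2 B-genome copies.

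Genes of class I crossovers, the ZMM group that marks most crossover sites, followed the synapsis genes at lower levels. The 14 genes summed to 33.2, 108.2 and 39.5 FPKM in Anther and 16.9, 14.6 and 17.6 FPKM in Ovule, and 10 were called higher in Anther. The count depended on the libraries, with 9 without Anther-2, 11 after rescaling, 6 without Ovule-1, 5 without Ovule-2 and 7 without Ovule-3. MSH4 and MSH5, which bind and stabilise recombination intermediates, were called for all 3 copies. The single copy of MSH4, Bol032857, stood at 1.92, 6.87 and 3.13 FPKM in Anther and 0.709, 0.988 and 0.672 FPKM in Ovule (log2 change 2.02, standard error 0.46, limma adjusted p = 0.01). SHOC1 (Bra029127), which works with a nuclease-like partner at these sites, was the most uneven, at 0.572, 3.72 and 1.31 FPKM in Anther and 0.267, 0.336 and 0.220 FPKM in Ovule (log2 change 2.05, standard error 0.62, limma adjusted p = 0.031). This call was lost without Anther-3 and without each single Ovule library, as was that of the MSH5 copy Bra035777. The SHOC1 call was also lost with limma voom and with a pseudocount of 1.

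HEI10, a RING-type protein that gathers at crossover sites, was called for 4 of its 7 copies, or 3 without Anther-2, with log2 changes of 0.35 to 2.51. Bra039674, at the upper end, stood at 2.92, 13.5 and 4.57 FPKM in Anther and 0.915, 0.614 and 1.32 FPKM in Ovule. Bra038126, at the lower end, stood at 4.37, 5.19 and 2.27 FPKM in Anther and 3.54, 2.03 and 3.37 FPKM in Ovule and overlapped. SPO22, a scaffold of the ZMM group, was called for 2 of 3 copies. Its B-genome copy BniB000031, for which a primer is shown, missed the threshold at 1.22, 4.68 and 2.02 FPKM in Anther and 0.989, 0.764 and 0.921 FPKM in Ovule (log2 change 1.27, standard error 0.47, limma adjusted p = 0.062), and it passed after rescaling and without Anther-1.

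Non-crossover genes, whose helicases and partners dissolve intermediates before they become crossovers, were not called higher in Anther with all 6 libraries. The 10 genes summed to 29.5, 44.2 and 26.9 FPKM in Anther and 38.7, 40.7 and 36.0 FPKM in Ovule. The 2 called genes were both higher in Ovule and both copies of the helicase RECQ4A, and neither was called with a pseudocount of 1 or by limma treat. Bra018418 stood at 2.72, 2.84 and 2.38 FPKM in Anther and 5.90, 7.07 and 5.74 FPKM in Ovule (log2 change -1.20, standard error 0.18, limma adjusted p = 1.7e-03). Bol022020 stood at 2.18, 2.07 and 2.31 FPKM in Anther and 4.74, 5.01 and 4.18 FPKM in Ovule (log2 change -1.05, standard error 0.18, limma adjusted p = 3.3e-03), and this call was lost after rescaling and without Ovule-2. The second A-genome copy, Bra031741, stood at 1.28, 1.39 and 1.46 FPKM in Anther and 1.26, 1.45 and 1.40 FPKM in Ovule and overlapped. RECQ4A was level over the Anther libraries, Anther-2 included, at 6.18, 6.29 and 6.15 FPKM over 3 copies.

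FANCM, a helicase that limits crossovers by another route, pointed the other way without reaching the fold threshold, and the organs did not overlap for any of its 3 copies. Without Anther-3 its copy Bra034416 was called higher in Anther, with a log2 change of 1.01 and a limma adjusted p of 4.8e-02. Its copy Bol031970 stood at 5.05, 6.37 and 3.75 FPKM in Anther and 3.00, 2.93 and 2.64 FPKM in Ovule (log2 change 0.77, standard error 0.23, limma adjusted p = 0.03). TOP3a and RMI1, partners of RECQ4A, had log2 changes of -0.55 to -0.31 over 4 copies and none was called. With copies summed, Anther-2 stood at 1.98-fold for TOP3a and 1.81-fold for RMI1 of the mean of Anther-1 and Anther-3. The Anther mean was 0.799 of the Ovule mean for TOP3a and 0.790 for RMI1, or 0.601 and 0.622 without Anther-2. No copy of these was called without Anther-2 either.

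Anther-2 departed from the other Anther libraries in opposite directions for meiotic and for pollen wall genes. With copies summed, Anther-2 stood above the mean of Anther-1 and Anther-3 by 3.96-fold for SHOC1, 2.75-fold for ASY1, 2.68-fold for ZYP1a and 2.98-fold for HEI10. It stood at 1.98-fold for TDF1 and was nearly level for AMS at 1.103-fold and for MYB80 at 0.904-fold. It was at 0.369-fold for LAP6 and 0.3796-fold for ABCG26, and the lowest values were 0.184-fold for CYP703A2 and 0.151-fold for MS2. Of the 37 meiotic genes Anther-2 was the highest Anther library for 35, and of the 51 male genes it was the lowest for 36. These ratios describe 1 library and carry no test.

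**Figure D5:**
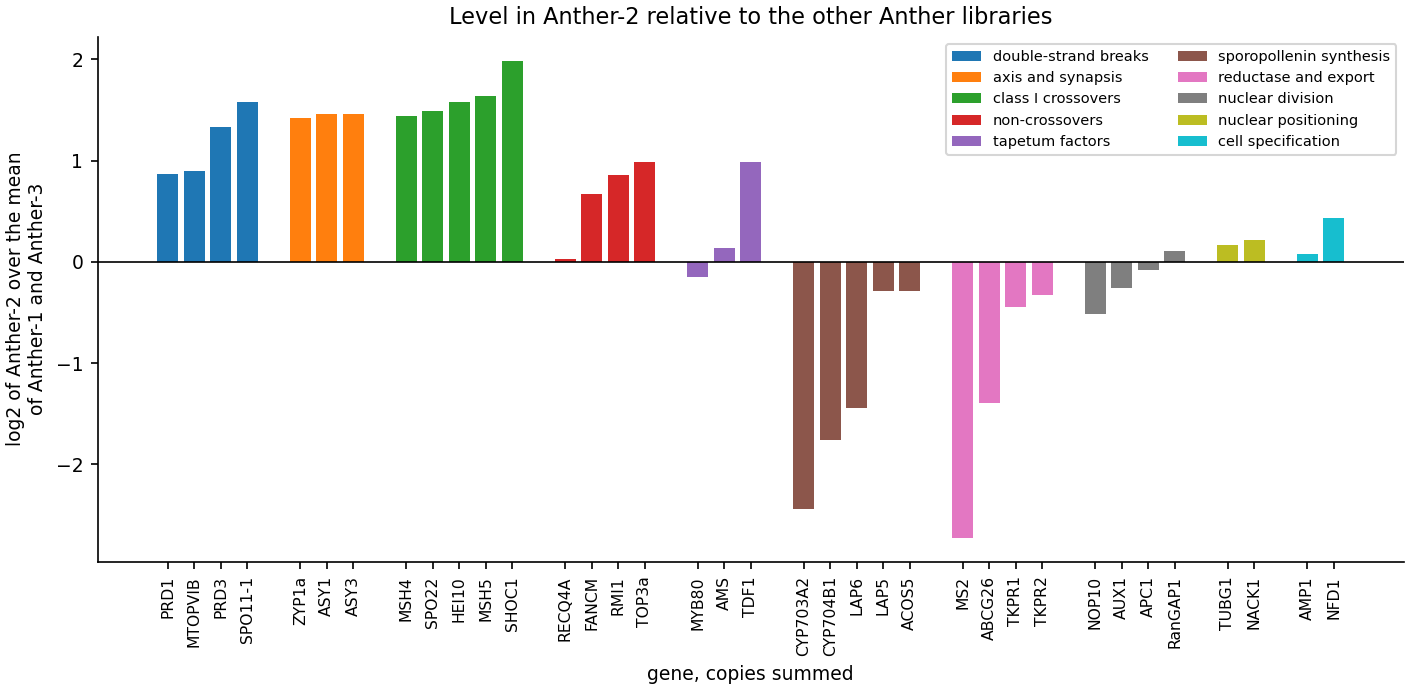
Log2 of the level in Anther-2 over the mean of Anther-1 and Anther-3 (vertical axis) for 36 of the genes named by the study with copies summed (horizontal axis), coloured by group. Bars for meiotic genes point upward, to 3.96-fold for SHOC1, and those for sporopollenin synthesis and export point downward, to 0.151-fold for MS2, while those of the female group lie between 0.699-fold for NOP10 and 1.35-fold for NFD1.

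Genes of the female gametophyte were all higher in Ovule, with 23 of 23 called with all 6 libraries and without Anther-2, and 22 after rescaling. The differences were moderate, with a median log2 change of -1.57. None of the 23 was absent from Anther, where the median gene stood at 34.7%, 34.5% and 29.3% of its Ovule mean in the 3 libraries. They took 0.0213% to 0.0240% of summed FPKM in Ovule, and the list holds no gene that marks Ovule by its absence from Anther.

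The 14 genes that the study placed under mitosis summed to 63.2, 52.8 and 53.3 FPKM in Anther and 194.5, 165 and 174 FPKM in Ovule. The proteins of this group differ in kind, since AUX1 carries the hormone auxin into cells, whereas APC1 is a subunit of the complex that starts anaphase and RanGAP1 activates a GTPase of nuclear transport and the spindle.

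RanGAP1 was the most abundant gene of the group, with 25.4, 26.02 and 23.04 FPKM in Anther and 76.4, 69.5 and 70.1 FPKM in Ovule over 4 copies, all of them called. AUX1 stood at 1.49, 1.31 and 1.65 FPKM in Anther and 4.48, 4.80 and 6.39 FPKM in Ovule over 2 copies. NOP10 (Bra036475), a protein of the particles that modify ribosomal RNA, stood at 13.5, 7.47 and 7.91 FPKM in Anther and 41.0, 32.2 and 26.4 FPKM in Ovule. The weakest call was the A-genome copy of APC1, Bra028755, at 0.709, 0.792 and 0.707 FPKM in Anther and 2.27, 1.53 and 1.42 FPKM in Ovule (log2 change -1.11, standard error 0.28, limma adjusted p = 0.017), which was lost after rescaling and without Ovule-1.

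Genes of nuclear positioning and of cell specification were called as well, 6 of 6 and 3 of 3, though limma treat, which tests for more than a 2-fold change, kept 1 and 0 of them. TUBG1 (Bra007622), the γ-tubulin from which microtubules grow, was the steadiest, at 6.64, 7.87 and 7.37 FPKM in Anther and 17.0, 17.0 and 16.6 FPKM in Ovule (log2 change -1.20, standard error 0.13, limma adjusted p = 3.7e-04). NACK1, a kinesin of cell plate formation known from tobacco and Arabidopsis, stood at 10.1, 10.5 and 8.03 FPKM in Anther and 30.3, 26.9 and 24.3 FPKM in Ovule over 5 copies. NFD1 (BniB000251), a protein of the mitochondrial ribosome, stood at 3.70, 4.46 and 2.93 FPKM in Anther and 8.91, 10.9 and 13.9 FPKM in Ovule. AMP1, a carboxypeptidase-like membrane protein that restrains cell fate, stood at 4.09, 3.75 and 3.00 FPKM in Anther and 9.29, 8.46 and 15.1 FPKM in Ovule over 2 copies. For both of these genes Ovule-3 was the highest library.

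Copies of one gene mostly moved together across subgenomes. Of the 28 genes with 2 or more copies, all copies had the same sign in 27, with RECQ4A as the exception, and all copies were called in 1 direction in 21. The median range of log2 changes among the copies of a gene was 0.85. The widest ranges were 3.74 for TKPR2, 3.39 for ASY1 and 3.15 for LAP5, and the narrowest was 0.05 for AUX1. Reads from near-identical copies may have been divided between them by the alignment, so levels of single copies are less certain than their sums.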

How the data were processed

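RNA-Seq libraries of Anther and Ovule were compared, 3 of each. The FPKM values were used as deposited by the authors, who aligned reads with HISAT2 2.1.0 to the B. rapa, B. nigra and B. oleracea genomes, obtained gene counts from HTSeq 0.6.0 and converted them to FPKM. StringTie 1.3.2 is named in the submitters' processing notes without a role. No scaling between libraries is stated, so the scale can shift all differences together. Handling of reads that match several copies is not given in the sources used here.

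The FPKM values of all 100804 genes came out as whole reads times a step within 0.01 read, and 99.9% of the gene lengths this gave were multiples of 3 (coding length). Reads were used for depth, for floors of 3 reads per library, which cover counting error only, and for 1 alternative. Differences were tested on log2(FPKM + 0.1) by limma 3.58.1 (R 4.3.3), using an eBayes trend, over the 6 libraries without a replicate block. The steps were tested on simulated data. Counts and shares per library were compared by two-sided exact permutation. Python 3.11.15, pandas 2.3.3, numpy 2.4.6 and matplotlib 3.10.9 were used otherwise.

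Named genes are the 111 genes that the study names by identifier and, in each direction, the gene with the largest difference in mean FPKM and the gene with the largest smallest ratio over the 9 library pairs, among called genes without overlap and with a mean of at least 10 FPKM in the higher organ. 1 of the named genes is not reported here by itself, and group counts and sums include its copies. The members, lists and rules were chosen with earlier results of these data known. Fits without a library used the same 71126 genes, because a minimum over fewer libraries would drop genes of the organ that lost one. As other alternatives the pseudocount was set to 1 or 0.01 and the filter to 1 FPKM or omitted. Further ones were median-of-ratios factors, Leaf in the fit, a replicate block, quality weights, limma treat and limma voom on the reads. Leaving out Anther-2 and Ovule-3 together, rescaling without Anther-2, genes at their bound and the leave-outs of detected genes were added after seeing the data. No genome or annotation was used.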

Additional observations from a re-analysis of the deposited data

How the results depend on the processing

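Of 295 repeats of the main results under other settings, 279 stayed within the limit set. The limit was 1.5 times for a count. Each count was judged by itself, so an order of the organs that turned, as for the calls after rescaling, is among the 279. For other values the limit was 1 SD between libraries with the direction kept. The subgenome shares were judged by direction alone. Some of the 279 repeats still changed in size, such as the A-genome share, at 0.0959 points without the 100 genes of highest mean against 0.361. Depth limits genes with few reads in one organ. Requiring the test itself to exceed 2-fold (limma treat) left 9594 called genes, 5818 higher in Anther and 3776 in Ovule, with 0 of the 14 class I genes, 6 of the 14 mitosis genes, 1 of the 6 nuclear positioning genes and 0 of the 3 cell specification genes. With a pseudocount of 1, which shrinks weak genes by construction, 1600 genes were at least 8-fold higher in Anther and 428 in Ovule. Taking the class from the higher organ gave 3395 moderate and 360 high genes toward Anther and 482 high genes toward Ovule. Requiring 2-fold in all 9 pairs left 6877 and 5460 genes. Rescaling brought the gap in genes above 100 FPKM to -29.7.

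Without the 100 genes of highest mean the B-genome share turned to 0.0164 points higher in Anther and the C-genome share to -0.112 points, and on summed log2(FPKM + 1) the C-genome share was -0.0683 points. Leaving out single libraries gave -0.0400 to 0.361 points for the C-genome, the lowest without Anther-1, and log2 ratios of -0.033 to 0.761 for the summed double-strand break genes, the lowest without Anther-2. In both, the cause was not tested. The same leave-outs gave 18868 to 21009 called genes, with 9332 to 10383 higher in Anther and 9434 to 10626 higher in Ovule.

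The replicate numbers were not taken to pair samples. Correlations between the deviations of same-numbered libraries were -0.110, -0.0219 and 0.182, the last, for Anther-3 with Ovule-3, being the highest of all 9 pairs. With the number as a replicate block, 20152 genes were called, SPO11-1 among them, and Anther-1 and Anther-2 each correlated better with an Ovule library of another number. Without Anther-2 and Ovule-3 together, added after seeing the data, 20448 genes were called. Of 2068 repeats for the 115 named genes, 67 missed the threshold and 7 newly passed it. No called gene turned direction, and changes of sign in genes that were not called were not counted.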
